A study of Mus musculus with 13 samples.

Results

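The 7 genes described here, Six2, Cited1, Eya1, Osr1, Sall1, Uncx and Meox1, encode transcription factors and transcriptional cofactors of the nephron progenitors of the mouse kidney. Their members in the chromatin data were 182 of the 300755 peaks of the series. A peak belonged to a gene when it overlapped the gene body or the 2 kb upstream of it (50 peaks), or when it lay within 100 kb of the gene start with that start as the nearest one of any protein-coding gene (132 peaks). Sall1 had 48 of these peaks, Uncx 34, Meox1 29, Eya1 27, Six2 16, Cited1 15 and Osr1 13, and no peak belonged to more than 1 of the genes. Each peak is named below by its gene and the distance of its centre from the gene start in kb, with a plus sign for downstream in the direction of transcription.

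Single nuclei ATAC-seq (snATAC-seq), which cuts and tags the DNA of open chromatin in nuclei captured one by one, was performed on whole kidneys of mice at birth (P0, 2 samples), at 3 weeks (P21, 1 sample) and at 8 weeks (P56, 2 samples), and the P21 and P56 samples together are called adult. No treatment was applied, and the genotype, strain and sex of these animals, and whether each sample came from 1 animal or several, were not given in the sources used here, so the p-values below measure the spread between samples only. The deposited matrix gave, for each of 28316 nuclei, the peaks that were open, and 27652 of these nuclei carried the name of 1 of 13 main clusters. NP names the nephron progenitors, PCT and PST the convoluted and straight proximal tubule, LOH the loop of Henle, DCT and CNT the distal convoluted and connecting tubule, and PC and IC the principal and intercalated cells of the collecting duct.

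Nephron progenitors are the mesenchymal cells that cap the ureteric bud tips and either renew or turn into the epithelium of the nephron, and in the mouse they are used up shortly after birth. Six2 keeps them in the undifferentiated state, Cited1 marks the least committed of them, and Eya1 is a partner protein of Six2 and its relatives that lacks a DNA-binding domain of its own. Osr1 and Sall1 are zinc finger factors needed for the metanephric mesenchyme, while Uncx and Meox1 are homeobox factors best known from the somites, the segmented mesoderm of the embryo.

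The NP cluster held 1032 and 1005 nuclei at P0, and 52, 90 and 53 in the P21 sample and the first and second P56 samples. Its nuclei had a median of 5898 and 7226 open peaks at P0 and of 4602, 3291 and 6855 in the adult samples, so a share of open nuclei carries the depth of its sample, and over whole samples the open calls ran from 16980853 to 43794155. The deposited cluster names were given by the authors from accessibility at marker genes, among them Uncx and Cited1 for NP, so that the rank of NP at these genes is partly built in, and no test between clusters was made. Of the 27834 distinct barcodes 477 occurred in more than 1 sample. In the adult nuclei labelled NP, Uncx was the only 1 of the 6 NP markers at which NP ranked first. Summed over the Six2 gene body and upstream window, open calls per 1000000 of the summed open calls (CPM) were 56.8 and 56.6 at P0 against 0, 0 and 2.71 in adults, where NP ranked 13 of the 13 clusters. At P0 NP ranked 1 at Six2, Cited1 and Uncx, 2 at Gdnf, 3 at Crym and 4 at Itga8. In adults it ranked 10 at Itga8, 5 at Gdnf, 4 at Cited1 and Crym, and 1 at Uncx alone, and the 6 together summed to 319.9 and 303.0 CPM at P0 and 86.5, 88.3 and 94.9 in adults. Of the marker lists of other clusters, some were higher in the adult nuclei labelled NP than in NP at P0 and others lower. The 2 loop of Henle markers, Slc12a1 and Umod, summed to 33.9 and 26.9 CPM in NP at P0 and to 99.4, 94.4 and 94.9 in adults. The 2 DCT markers summed to 28.7 and 29.7 against 64.9, 127.9 and 138.3, the 2 IC markers to 17.6 and 19.3 against 51.9, 45.7 and 27.1. The 6 proximal tubule markers summed to 138 and 149 against 186, 155 and 315. The 5 stromal markers summed to 155 and 159 CPM at P0 and to 77.8, 100.5 and 76 in adults, the 4 endothelial markers to 110.3 and 110.5 against 25.9, 60.9 and 70.5. The 4 podocyte markers summed to 210.0 and 205.1 against 125.4, 140.1 and 189.9, and the 2 CNT markers to 17.3 and 17.6 against 8.65, 6.09 and 8.14. The PC list overlapped between the stages, and the 3 immune markers summed to 24.3 and 25.9 against 25.9, 54.8 and 40.7. Pvalb of the DCT list and Akr1c21 of the proximal tubule list were at 0 in the adult nuclei labelled NP. None of the 6 NP markers was without an open call when the adult nuclei labelled NP were pooled. The part of these nuclei's identity in the stage differences below was not tested.

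Sequence is printed for 5 of the peaks, because they carry the results below: the most open distal peak of Six2, the most NP-restricted peak of Eya1, 2 peaks of Uncx that parted in the adult kidney, and the distal Sall1 peak that was open in adult proximal tubule. Each is a stretch of 300 bases of the plus strand of mm10 (GRCm38), 5′ to 3′, and capitals mark matches, on either strand, to 1 of 6 short motif cores: SIX-family (GTATCA), OSR (GCTACTG), abdominal-B HOX (TTTATGG), TCF/LEF (TTCAAAG), paired-class homeodomain (TAATTA) and TEAD (GGAATG). Where a peak held 2 or more matches, the stretch was placed to hold as many of them as possible, so these stretches cannot be set against the shares of all peaks given further down.
Six2 -60.4 kb, chr17:85747929-85748228: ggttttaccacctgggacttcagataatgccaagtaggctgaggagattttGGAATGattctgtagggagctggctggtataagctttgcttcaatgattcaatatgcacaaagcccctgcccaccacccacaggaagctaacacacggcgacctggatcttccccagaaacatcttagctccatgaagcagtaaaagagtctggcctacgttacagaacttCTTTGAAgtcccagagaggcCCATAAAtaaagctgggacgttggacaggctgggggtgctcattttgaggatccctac
Eya1 -34.8 kb, chr1:14344631-14344930: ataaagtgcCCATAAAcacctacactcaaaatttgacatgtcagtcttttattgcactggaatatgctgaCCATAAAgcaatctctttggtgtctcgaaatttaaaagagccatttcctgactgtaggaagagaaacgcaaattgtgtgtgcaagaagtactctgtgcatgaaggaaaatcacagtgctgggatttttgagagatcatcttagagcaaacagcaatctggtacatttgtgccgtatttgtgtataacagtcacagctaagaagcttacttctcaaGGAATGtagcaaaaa
Uncx -7.4 kb, chr5:139536378-139536677: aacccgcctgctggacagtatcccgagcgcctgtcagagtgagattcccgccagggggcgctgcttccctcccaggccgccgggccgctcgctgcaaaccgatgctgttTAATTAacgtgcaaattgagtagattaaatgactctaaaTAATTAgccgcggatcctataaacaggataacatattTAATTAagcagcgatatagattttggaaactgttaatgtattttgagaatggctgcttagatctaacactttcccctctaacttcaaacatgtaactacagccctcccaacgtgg
Uncx +56 kb, chr5:139599365-139599664: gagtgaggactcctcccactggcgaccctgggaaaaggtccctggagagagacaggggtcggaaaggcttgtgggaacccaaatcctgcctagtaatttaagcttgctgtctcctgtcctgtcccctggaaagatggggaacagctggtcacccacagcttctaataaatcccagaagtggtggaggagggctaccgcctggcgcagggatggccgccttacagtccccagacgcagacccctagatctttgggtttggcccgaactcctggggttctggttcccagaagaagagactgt
Sall1 +28.3 kb, chr8:89015724-89016023: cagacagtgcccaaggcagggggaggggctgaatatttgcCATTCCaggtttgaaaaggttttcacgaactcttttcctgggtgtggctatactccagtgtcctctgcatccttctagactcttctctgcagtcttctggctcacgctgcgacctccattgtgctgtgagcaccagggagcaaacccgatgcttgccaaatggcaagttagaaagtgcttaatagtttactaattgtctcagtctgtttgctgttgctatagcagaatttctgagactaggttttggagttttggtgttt
The Six2 stretch held 1 TEAD, 1 TCF/LEF and 1 HOX core, and the Eya1 stretch 2 HOX cores and 1 TEAD core. The Uncx -7.4 kb stretch held 3 homeodomain cores. The whole peaks held 6, 5 and 6 matches in turn, and that of Six2 included 1 SIX-family core outside the stretch. The whole Uncx +56 kb peak held none of the 6 cores, and the Sall1 +28.3 kb peak held 1 TEAD core.

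At P0, the peaks of the 7 genes were led by nephron progenitors more often than peaks over the genome were. Of the 162 member peaks open in at least 1% of the nuclei of some cluster at P0, 49 (30.2%) had their largest share of open nuclei in NP in both P0 samples, against 5.9% of the 269187 peaks of the genome that passed the same filter. In 16 member peaks (9.88%) the NP share was at least 2-fold that of every other cluster in both samples, against 1.75% of all. Uncx had 19 of its 33 passing peaks led by NP and Six2 8 of 14, whereas Eya1 had 9 of 26, Osr1 3 of 7, Cited1 3 of 13, Meox1 4 of 28 and Sall1 3 of 41. By mean share over the 2 samples, NP came first for 63 of the 162 peaks, PST for 26, LOH for 16 and endothelium for 11. PST nuclei had medians of 10199 and 8547.5 open peaks at P0, against 5898 and 7226 in NP. This ranking was not made over all peaks, and the part of depth in it was not tested. The count of NP-led peaks fell to 23 once every nucleus was thinned to 1000 open peaks, beside 3.22% of all peaks. It was 59 without the first and 56 without the second P0 sample, beside 9.61% and 7.42% of all peaks. The count with a 2-fold lead was 28 without the first, beside 3.46% of all peaks.

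**Figure D1:**
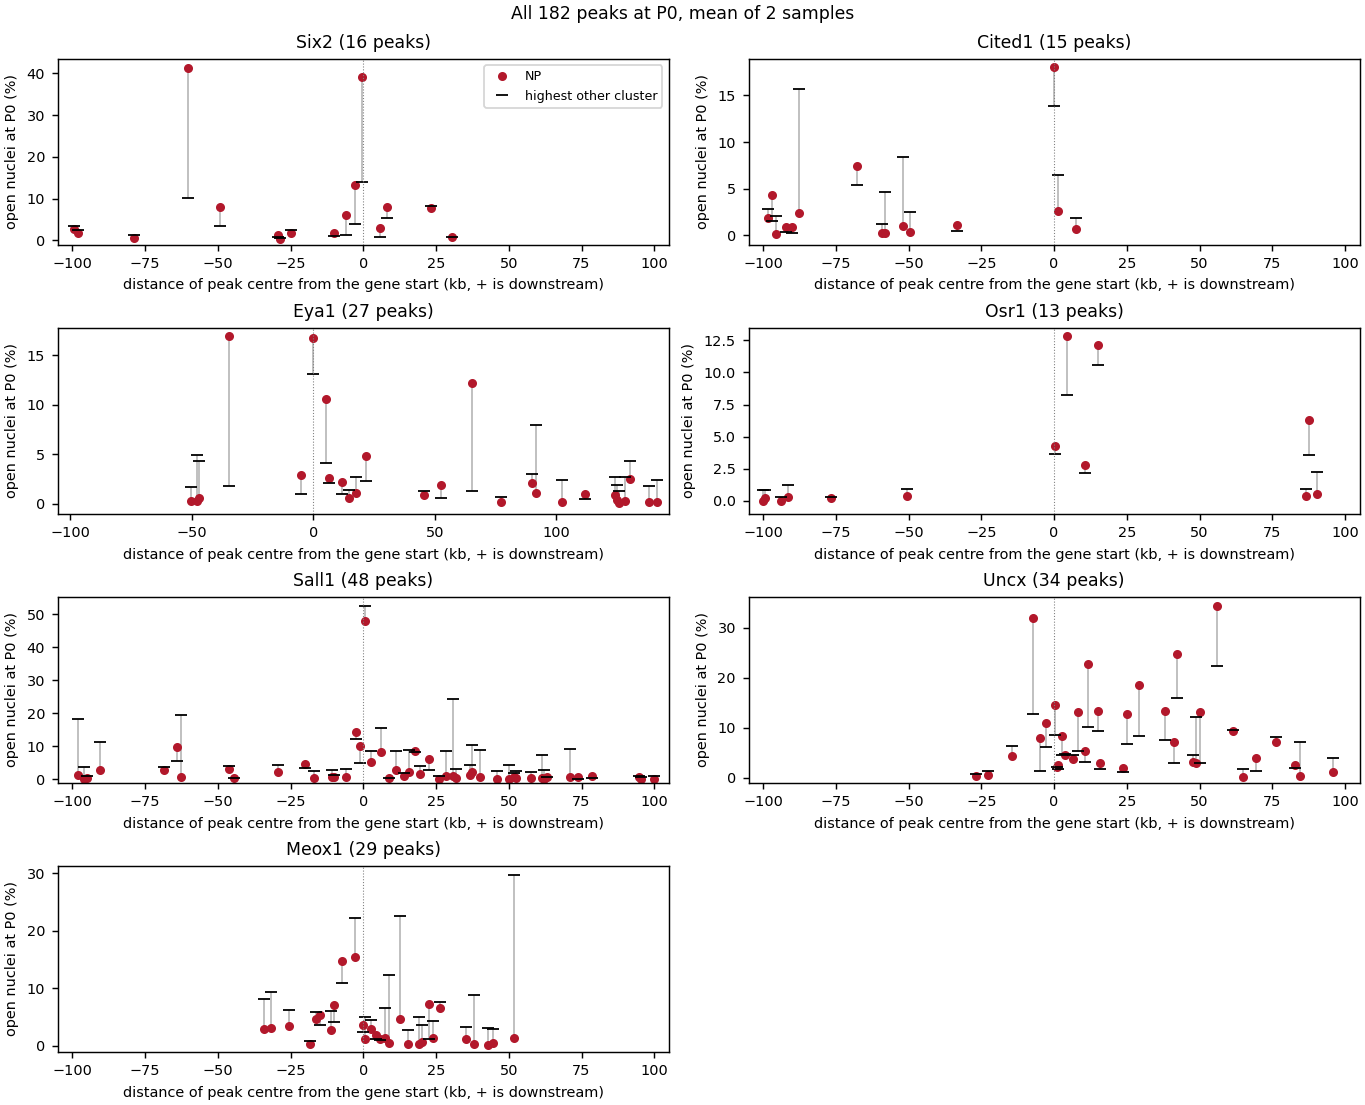
Share of open nuclei at P0 (%, mean of 2 samples) for all 182 peaks, 1 panel per gene, against the distance of the peak centre from the gene start (kb, plus is downstream); red points are NP and black dashes the highest of the other 12 clusters. NP stood clear of the other clusters at a few peaks of Six2, Eya1 and Uncx, while at most Sall1 and Meox1 peaks another cluster was as high or higher.

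In the adult samples only 5 of 111 passing member peaks (4.50%) were led by NP in all 3 samples, against 1.34% of 200432 peaks, and 2 of them were at least 2-fold the next cluster in each sample, against 0.266% of all. Leaving out 1 adult sample raised the count of 5 to 14 without the P21 sample, 8 without the first and 7 without the second P56 sample. The share of all peaks also rose, to 3.25%, 3.02% and 2.77%. Without the P21 sample 7 in place of 2 had a 2-fold lead, beside 0.834% of all peaks. Of the 5 peaks 4 belonged to Uncx, at +6.5, +11.7, +42.1 and +56 kb, and 1 to Sall1, at +57.8 kb. Among the 195 adult nuclei labelled NP, 4, 7, 8 and 34 were open at these Uncx peaks and 10 at the Sall1 peak, so most of these leads rest on few nuclei. After thinning to 1000 open peaks per nucleus NP led 1 member peak in all adult samples, beside 0.363% of all peaks. PST came first for 34 of the 111 peaks by mean share, NP for 28 and endothelium for 11. Adult PST nuclei had medians of 5398.5, 5956 and 12173 open peaks, against 4602, 3291 and 6855 in NP. Here too the ranking was not made over all peaks, and the part of depth was not tested. Among the 49 peaks led by NP at P0, 21 were open in none of the 195 adult nuclei labelled NP. Of the 113 other member peaks that passed at P0, 39 were open in none of these nuclei. NP led 3 of the 49 and 2 of the 113 in every adult sample.

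Averaged over those 49 peaks, the share of open NP nuclei was 10.3% and 11.9% at P0 and 0.785%, 1.20% and 2.35% in the P21 and the 2 P56 samples. In LOH nuclei the same mean was 4.30% and 4.49% at P0 and 0.461%, 0.270% and 0.331% in adults, and in PCT nuclei it was 1.27% and 0.850% at P0. LOH had the highest mean of the other 12 clusters in both P0 samples, with podocytes, PST, stroma 2 and CNT between 1.74% and 2.65%, and its adult samples were all below both P0 samples. The peaks were chosen because NP led them at P0, so both the lead of NP over other clusters and the fall in NP with age are descriptions that the choice favours. By the same choice of peaks, 80.7% and 83.3% of NP nuclei at P0 had at least 1 of the 16 peaks with a 2-fold lead open, compared with 42.8% and 42.9% of LOH nuclei and 13.9% and 11% of PCT nuclei. Among adult nuclei labelled NP it was 5.77%, 8.89% and 30.2%.

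**Figure D2:**
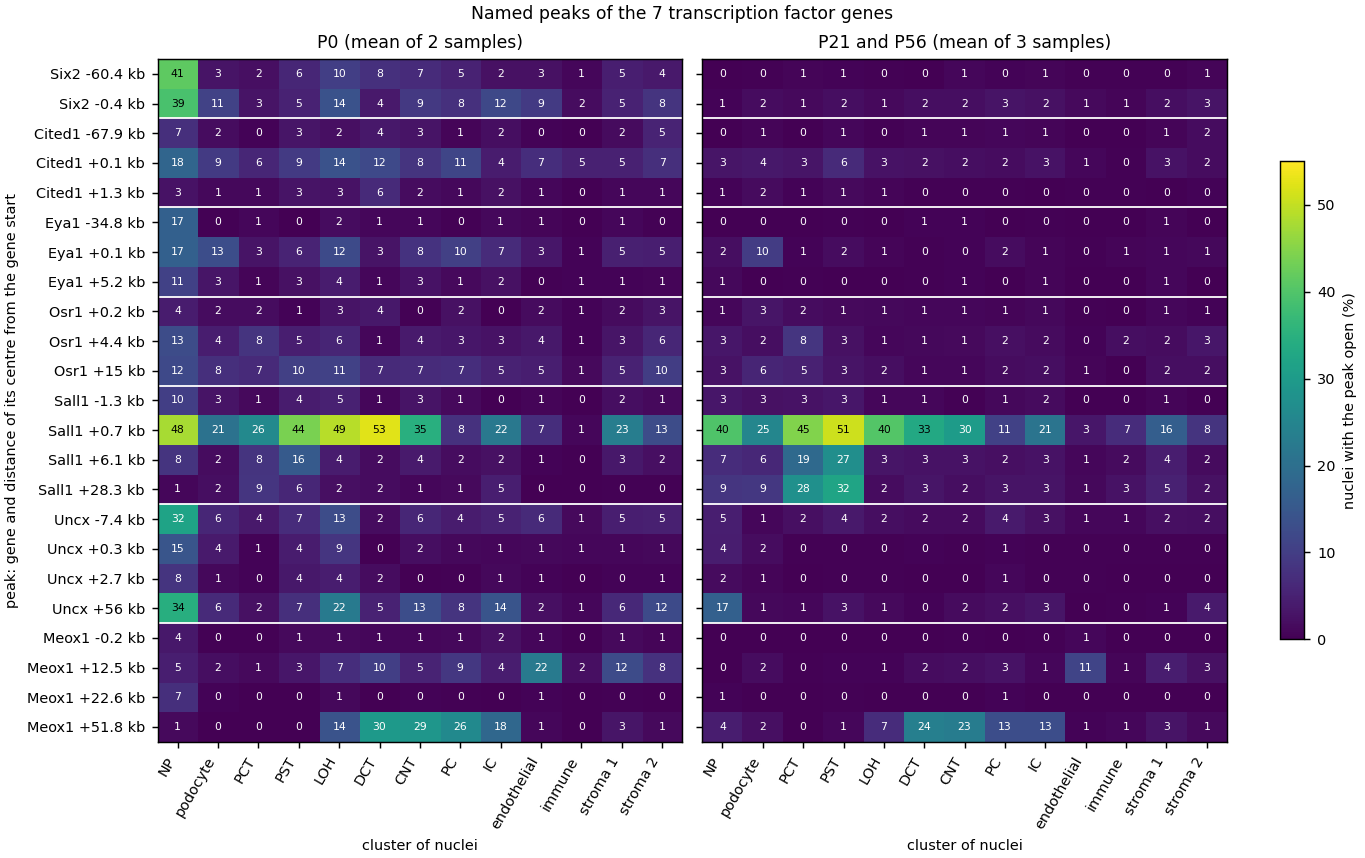
Share of nuclei with each named peak open (%, colour), by cluster, as the mean of the 2 P0 samples (left) and the 3 adult samples (right). The 2 Six2 and 4 Uncx peaks shown were highest in NP at P0, and the Sall1 peak at +28.3 kb was highest in PST and PCT in adults.

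Six2, the homeobox factor that holds progenitors in renewal, lies on chromosome 17 (85684277-85688274, minus strand), and only 1 peak fell in its window. This peak covered the start (-0.4 kb, 85687815-85689464) and was open in 35.3% and 43.1% of NP nuclei at P0, and in 0%, 0% and 1.89% of adult nuclei labelled NP. A count of 0 in these 52, 90 or 53 nuclei allows a share of up to 5.77%, 3.33% and 5.66% by counting error alone. The next cluster at P0, LOH, had 14.5% and 13.3%, and immune nuclei, which should lack the gene, had 2.02% and 1.75% with a median of 3677 and 3025 open peaks. The groups did not overlap, with every NP value at P0 above every value of the other 2 clusters and of the adults.

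A second Six2 peak as open as the start lay at -60.4 kb, between genes (85747869-85749434). It was open in 37.7% and 45.1% of NP nuclei at P0 and in none of the adult nuclei labelled NP in any sample, and in 10.1% and 10.4% of LOH nuclei at P0 against 0.254%, 0.480% and 0.110% in adults. At P0 the Six2 start was open in 50.9% and 55.2% of the NP nuclei in which the -60.4 kb peak was open and in 25.8% and 33.2% of those in which it was closed. Nuclei with the distal peak open also had more open peaks in all (medians of 7110 against 5235, and of 9058 against 5907), and the part of depth in this difference was not tested. At least 1 of the pair was open in 53.8% and 63.3% of NP nuclei. Closer to the start, the peak at -2.9 kb was open in 13.5% and 12.9% of P0 NP nuclei and the peak at -6.1 kb in 6.01% and 6.27%, and both were closed in every adult nucleus labelled NP. These 4 peaks were the Six2 peaks with a 2-fold lead in both P0 samples.

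Cited1, a coactivator without DNA-binding domain whose protein is found in uninduced progenitors, lies on chromosome X (102247381-102252181, minus strand). Its start peak (+0.1 kb, 102251402-102252797, which also overlaps the gene model Gm14858) was open in 15.4% and 20.6% of NP nuclei at P0 and in 1.92%, 3.33% and 3.77% of adult nuclei labelled NP. DCT was above NP in the first P0 sample, at 15.7%, and below it in the second, at 8.77%, and LOH had 14.8% and 12.9%. NP and LOH were close in the first sample, so the Cited1 start did not separate NP from the distal tubule beyond the spread between samples. In adults PST had the largest share at this start, 6.47% ± 2.10 (SD, n = 3). The peak at +1.3 kb was open in 2.71% and 2.49% of P0 NP nuclei and in more DCT nuclei, 5.88% and 7.02%. The most open distal peak (-67.9 kb, 102319677-102320431), which lies inside Hdac8, was open in 7.66% and 7.26% of NP nuclei at P0 against 5.20% and 5.68% in stroma 2, and in no adult nucleus labelled NP.

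Eya1, a phosphatase and coactivator that binds Six2 and its relatives, spans chromosome 1 from 14168954 to 14310235 on the minus strand and had 22 peaks in its window. The start peak (+0.1 kb, 14309691-14310607) was open in 13.5% and 20.1% of P0 NP nuclei, and in 10.4% and 15.7% of podocytes. NP was above podocytes in each of the 2 samples, but by less than the samples differed from each other. In adults it was open in 12.8%, 6.37% and 10.3% of podocytes and in 1.92%, 2.22% and 1.89% of nuclei labelled NP, so the podocyte value stayed in the P0 range or below it while the NP value was lower in each adult sample.

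Away from the start, Eya1 had the peaks that were most nearly limited to NP. The peak at -34.8 kb (14344500-14345645, between genes) was open in 16.2% and 17.6% of NP nuclei at P0, in 1.26% and 2.30% of LOH nuclei and in 0% and 0% of immune nuclei, and the intron peak at +65.1 kb (14244862-14245397) was open in 12.0% and 12.3% of NP and 1.58% and 1.07% of LOH nuclei. Both were closed in all adult nuclei labelled NP. By the ratio of mean shares these peaks stood 9.49-fold and 9.20-fold above the next cluster, compared with 2.82-fold at the Six2 start and 4.04-fold at Six2 -60.4 kb. The intron peak at +5.2 kb was open in 9.69% and 11.4% of NP and 4.72% and 3.53% of LOH nuclei at P0, and in 3.85%, 0% and 0% of adult nuclei labelled NP.

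Osr1, a zinc finger factor of the early nephrogenic mesoderm, lies on chromosome 12 (9570116-9581500, plus strand). The peak over an annotated start that was most open lies at +4.4 kb (9573928-9575062), at the start of an alternative transcript, and the peak nearest the main start, at +0.2 kb in an untranslated region of the gene and overlapping the gene model 1700022H16Rik, was open in 4.17% and 4.38% of NP nuclei. At +4.4 kb, NP had 12.9% and 12.7% at P0 and PCT 10.8% and 5.75%, and in adults NP had 1.92%, 2.22% and 5.66% and PCT 9.03%, 6.63% and 9.79%. The leading cluster at this peak was NP at P0 and PCT in adults. The distal peak at +15.0 kb was open in 11.8% and 12.4% of NP nuclei at P0, 9.92% and 11.2% of LOH and 9.70% and 10.4% of stroma 2 nuclei, so NP was not set apart there.

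Sall1, a zinc finger factor that recruits a histone deacetylase complex, lies on chromosome 8 (89027235-89044162, minus strand). No peak covered its annotated start, and the peak just inside the gene (+0.7 kb, 89042782-89044112) stands in for it here. It was open in 43.8% and 51.9% of NP nuclei at P0 and in 36.5%, 18.9% and 64.2% of adult nuclei labelled NP. At P0 DCT had 49.0% and 56.1%, LOH 47.9% and 50.2% and PST 45.8% and 42.0%, so nephron epithelium and NP overlapped, whereas endothelium had 4.73% and 9.71% and immune nuclei 0% and 1.75%. The 3 adult values of NP stood in the order of the median open peaks of those nuclei, 4602, 3291 and 6855. In adults PST had 51.1%, 31.5% and 70.1%, and the immune share reached 19.8% in the second P56 sample. The part of depth in these adult values was not tested.

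Further into and beyond the gene, the most open Sall1 peaks were led by the proximal tubule. The distal peak at +28.3 kb (89015481-89016268, between genes) was open in 0.969% and 0.995% of NP nuclei at P0, in 7.23% and 4.46% of PST nuclei and in 9.14% and 7.90% of PCT nuclei. In adults it reached 19.2%, 24.5% and 52.7% in PST and 23.3%, 19.0% and 40.3% in PCT, and 3.85%, 6.67% and 15.1% in nuclei labelled NP. LOH nuclei stayed between 1.27% and 2.61% in all 5 samples. The intron peak at +6.1 kb was open in 8.96% and 7.72% of PCT nuclei at P0 and in 18.4%, 11.3% and 26.4% in adults. The peak at -1.3 kb, upstream of the start, was the Sall1 peak with the largest NP gap at P0, 9.11% and 11.3% in NP and 5.35% and 4.60% in LOH. The adult NP-led peak at +57.8 kb was open in 0.291% and 0.398% of NP nuclei at P0 and in 1.92%, 4.44% and 9.43% of adult nuclei labelled NP.

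Uncx, a paired-type homeobox factor, lies on chromosome 5 (139543494-139548179, plus strand) and had the most NP-led peaks, 16 of 28 passing distal ones and 3 of 5 in its window. The start peak (+0.3 kb, 139543458-139544188) was open in 12.4% and 16.7% of NP and 7.56% and 9.51% of LOH nuclei at P0, and in adults in 1.92%, 5.56% and 5.66% of nuclei labelled NP and in 0.254%, 0.384% and 0.331% of LOH nuclei. The intron peak at +2.7 kb was open in 8.43% and 8.06% of NP and 3.78% and 5.22% of LOH nuclei at P0.

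The most open Uncx peaks were distal, on both sides of the gene. At -7.4 kb (139535408-139536706, inside the non-coding gene 4930500L23Rik), 29.4% and 34.5% of NP nuclei were open at P0, 12.9% and 12.6% of LOH and 1.01% and 1.75% of immune nuclei, and 0%, 2.22% and 11.3% of adult nuclei labelled NP. At +56 kb (139598843-139600188, between genes), 31.4% and 37.4% of NP and 20.3% and 24.4% of LOH nuclei were open at P0. These 2 peaks parted in adults. The one at +56 kb was still open in 11.5%, 20% and 18.9% of nuclei labelled NP, above the other 12 main clusters in each sample, with stroma 2 at 3.88%, 4.67% and 3.49% and LOH at 2.03%, 1.06% and 1.22%. In a small further cluster, deposited with a name joining NP and LOH, it was open in 7.14%, 9.78% and 14.5%. Further peaks at +11.7 kb (20.3% and 25.2% of P0 NP nuclei), +29.2 kb (15.9% and 21.1%) and +42.1 kb (22.6% and 27.1%) were at or below 5.66% in every adult sample of the same label.

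Meox1, a homeobox factor of the developing mesoderm, lies on chromosome 11 (101877510-101894374, minus strand), and no peak covered its annotated start. The nearest peak, at -0.2 kb (101894418-101894705), was open in 3.30% and 3.88% of P0 NP nuclei. The most open window peak (+12.5 kb, in an intron) belonged to endothelium, with 22.1% and 22.8% of nuclei at P0 and 6.79%, 13.6% and 13.2% in adults, against 4.07% and 5.17% of P0 NP nuclei. Stroma 1 followed with 10.9% and 14.1% at P0. The distal peak at +51.8 kb was most open in the distal tubule, in DCT with 31.4% and 28.1% at P0 and 23.8%, 20.5% and 26.7% in adults and in CNT with 25.9% and 31.7% at P0, and the 2 overlapped. A single distal peak at +22.6 kb (101871496-101872003) was close to NP alone at P0, with 7.46% and 7.26% of NP against 1.26% and 1.07% of LOH nuclei, and was open in 0%, 0% and 1.89% of adult nuclei labelled NP.

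**Figure D3:**
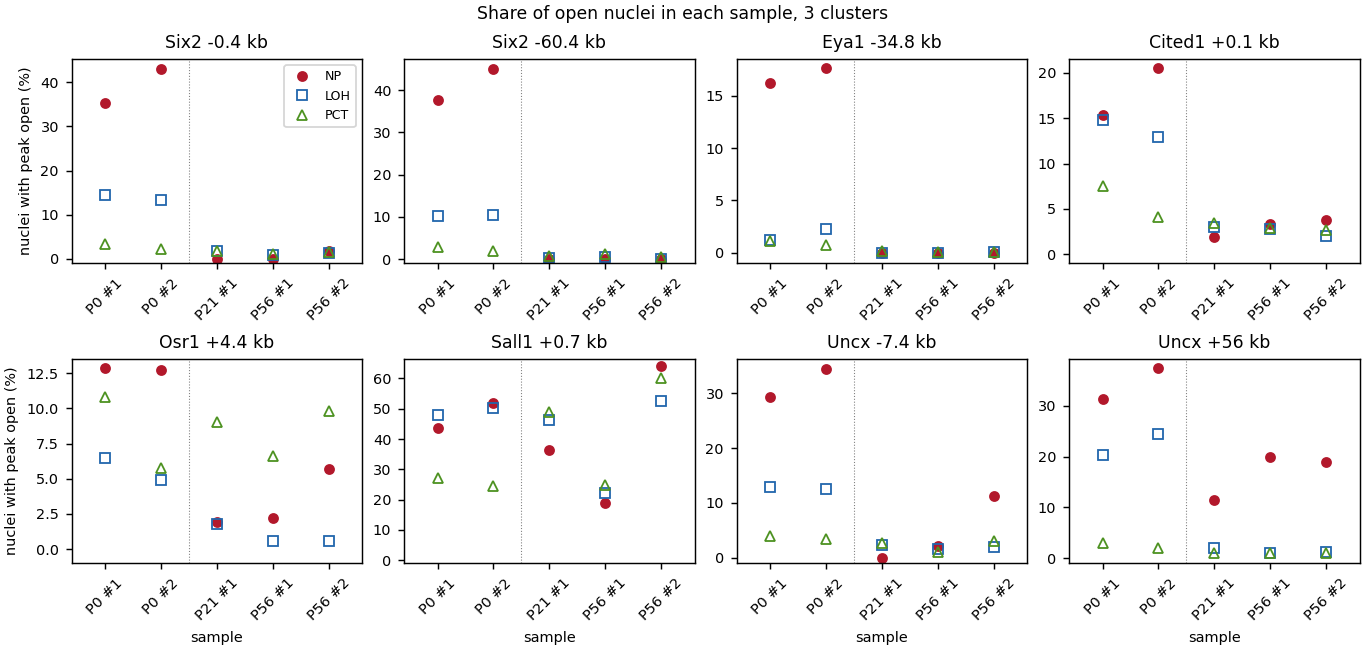
Share of nuclei with a peak open (%) in each of the 5 samples for 8 peaks, in 3 clusters per panel; the dotted line parts the 2 P0 samples from the P21 and P56 samples. At Six2 -60.4 kb the NP values of 37.7% and 45.1% at P0 faced 0% in each adult sample, while at Uncx +56 kb the adult values were 11.5%, 20% and 18.9%.

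The stage difference was tested in each of 8 clusters with edgeR's quasi-likelihood test on open calls summed per sample, with Benjamini-Hochberg adjustment over all features tested in the cluster, so that differences in total open calls are scaled out. Batch and lysis volume also differed between the stages and cannot be told apart from age in these tests. The filter kept features with enough open calls in at least 2 samples. A feature could thus enter through the P0 samples alone, which favours a higher value at P0. Over gene windows, 5 of 6 tested members were more open in P0 than in adult nuclei labelled NP and none less open (also none with DESeq2 or at an unadjusted p under 0.05), against 21.2% of 15381 genes in the first direction and 18.8% in the second. The log2 fold change (P0 over adult) was 5.81 ± 0.60 (SE) for Six2 (adjusted p = 2.1e-16), 2.22 ± 0.27 for Eya1 (adjusted p = 1.0e-12), 2.12 ± 0.45 for Cited1 (adjusted p = 2.8e-05), 1.89 ± 0.44 for Osr1 (adjusted p = 0.00015) and 1.18 ± 0.30 for Uncx (adjusted p = 0.00048). All 5 had passed the filter through the P0 samples alone, so their count is no support for a direction, and Sall1 was the member that passed in both stages. Sall1 had 112.8 and 113.0 CPM at P0 and 116.7, 106.6 and 143.8 in adults, a log2 fold change of 0.02 ± 0.17 (adjusted p = 0.95). Meox1 was not tested because fewer than 2 of its samples reached the filter, with 25.1 and 26 CPM at P0 and 4.32, 3.05 and 2.71 in adults. The Six2 value rested on 1 open nucleus among 195 in the adults, which lay in the second P56 sample. The share of open nuclei at its start was 76.3-fold higher at P0, with a 95% interval of 13.7 to 3017 for counting error only, and without that sample the fitted log2 fold change was 10.7.

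For single peaks the NP fit was limited by the low-count filter, whose cutoff follows the median library, here an adult sum of 368632 open calls. Only 7 of the 182 member peaks had enough open calls in enough samples to be tested. Of these, edgeR called 6 more open at P0 and none in adults (also none at an unadjusted p under 0.05 and none with DESeq2), against 20.4% and 19.2% of 10623 peaks. Of the 7, 5 passed the filter through the P0 samples alone, so that the count is largely set by the filter, and 2, Uncx +56 kb and Sall1 +0.7 kb, passed in both stages. The 6 were the Six2 start (log2 fold change 6.0 ± 0.56, adjusted p = 2.7e-24), Six2 -60.4 kb (adjusted p = 1.0e-27) and Uncx at -7.4 kb (2.76 ± 0.37), +11.7 kb (2.46 ± 0.42), +42.1 kb (2.40 ± 0.39) and +56 kb (0.79 ± 0.24, adjusted p = 0.0031). The last of these was 1.33 without the first P56 sample, and was no longer called without the P21 sample (0.60, adjusted p = 0.055) or the second P56 sample (0.62, adjusted p = 0.089). The 7th, Sall1 +0.7 kb, had 0.23 ± 0.18 (adjusted p = 0.34). Six2 -60.4 kb was open in 842 of 2037 P0 nuclei and 0 of 195 adult ones, a share at least 26.9-fold higher at P0 when the adult value is set at 3 counts over the group. By the same bound Eya1 -34.8 kb was at least 11-fold higher, Six2 -2.9 kb at least 8.58-fold and Eya1 +65.1 kb at least 7.91-fold. None of these 3 entered the fit. The bounds pool nuclei over samples, cover counting error only and are not scaled for depth. The count of called peaks depended on which library was left out, because the low-count filter follows the median library. It was 51 higher and 4 lower at P0 without the P21 sample, 47 and 3 without the first and 41 and 4 without the second P56 sample. Over all peaks the same fits called 21348 and 10043 of 80886, 20559 and 7421 of 78251, and 15953 and 7789 of 83051.

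In LOH nuclei, the runner-up to NP at many of the peaks above, 45 of 78 tested member peaks were more open at P0 and 6 in adults, against 29.9% and 24.4% of 89743 peaks. The filter had passed 47 of the 78 through the P0 samples alone and 6 through the adult samples alone, and of the 23 that passed in both stages 6 were more open at P0 and 2 in adults. After thinning to 1000 open peaks per nucleus 9 could be tested, with 5 more open at P0 and 0 in adults, against 12.1% and 12.6% of 19077 peaks. All 22 tested Uncx peaks were among the 45, and so were 4 of 5 Six2 peaks. Only 3 of these Uncx peaks passed the filter in both stages, all 3 called. Of the Six2 peaks 2 did, with 1 called, so the counts per gene are largely set by the filter. The log2 fold change was 3.89 ± 0.47 for Six2 -60.4 kb (adjusted p = 2.5e-07). It was 4.18 ± 0.39 for Uncx +42.1 kb (adjusted p = 6.1e-09), 3.44 ± 0.45 for Uncx +0.3 kb (adjusted p = 6.9e-07) and 2.93 ± 0.30 for Uncx +56 kb (adjusted p = 2.3e-08). For Eya1 it was 3.73 ± 0.68 at +5.2 kb (adjusted p = 5.8e-05) and 2.91 ± 0.39 at +0.1 kb (adjusted p = 9.8e-07). Of these 6 peaks, Uncx +56 kb was the one that passed the filter in both stages. Uncx +11.7 kb, named because no adult LOH nucleus was open there, was open in 131 of 1287 LOH nuclei at P0 and in 0 of 2341 in adults. With the adult value set at 3 counts over the group, the share was at least 79.4-fold higher at P0. This bound pools nuclei over samples, covers counting error only and is not scaled for depth. LOH nuclei had medians of 6567 and 7430 open peaks at P0 and of 3084, 2496 and 4477 in adults. Sall1 was mixed, with 7 of 26 peaks up and 3 down at P0, and its +0.7 kb peak was less open at P0 by 0.78 ± 0.23 on the log2 scale (adjusted p = 0.0059). Over gene windows, where all 7 members passed the filter in both stages, 6 were more open at P0 and Sall1 less (-0.45 ± 0.16, adjusted p = 0.031), against 29.5% and 23.4% of 25583 genes. The Cited1 and Osr1 calls ended without the first P0 sample (adjusted p = 0.094 and 0.20). After thinning, Six2, Eya1, Uncx and Meox1 were called, Cited1 was not (adjusted p = 0.054), Osr1 was too low to test, and the Sall1 call ended (adjusted p = 0.16), as it did with 5 kb upstream (0.074). The loop of Henle markers were low in the P0 nuclei of this cluster, at 99.1 and 125 CPM against 510, 440 and 527 in adults, and the part of this difference in the result was not tested. The count of 6 peaks more open in adults fell without the first P0 sample, as did that over all peaks, with 1 P0 sample left in the fit. It was 3 without the second P56 sample, beside 16864 of 74655 peaks. The call of Sall1 +0.7 kb ended without either P0 sample (adjusted p = 0.10 and 0.17), and that of the Sall1 window without any sample but the first P56 one (0.081 to 0.24).

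In PCT nuclei, 15 of 65 tested member peaks were more open at P0 and 13 in adults, against 17.6% and 16.3% of 115761 peaks, close to the background in both directions. Of the 42 that passed the filter in both stages 3 were more open at P0 and 9 in adults, and after thinning 22 could be tested, with 0 and 2 called. Sall1 had 24 of its 32 tested peaks pass in both stages, and 8 of these were more open in adults and 0 at P0. Uncx had 5 such peaks, with 2 more open at P0 and 1 in adults, and Six2 had 3, of which none was called. Sall1 +28.3 kb had a log2 fold change of -2.04 ± 0.25 (adjusted p = 0.00011), Sall1 +26 kb, which passed through the adult samples alone, -3.94 ± 0.67 (adjusted p = 0.00079), Sall1 +6.1 kb -1.50 ± 0.25 (adjusted p = 0.00068) and Sall1 +0.7 kb -1.11 ± 0.25 (adjusted p = 0.0045). Osr1 +4.4 kb, open in proximal tubule at both stages, had -0.44 ± 0.24 (adjusted p = 0.18). Both counts fell without either P0 sample, as did those over all peaks, with 1 P0 sample left in the fit. Without the second P56 sample they were 8 and 9, beside 15169 and 14563 of 96718 peaks. With DESeq2 they were 5 and 10, beside 12369 and 13953 of 115761. The call of Sall1 +0.7 kb ended without either P0 sample (adjusted p = 0.11 and 0.062).

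In PST nuclei edgeR called none of 24 tested member peaks more open at P0 (5 at an unadjusted p under 0.05, and 0 with DESeq2) and 3 were more open in adults, against 6.99% and 9.04% of 45868 peaks. Of the 24, 10 passed the filter through the adult samples alone and 5 through the P0 samples alone, and of the 9 that passed in both stages 1 was called, in adults. After thinning 2 could be tested and none was called, against 0.0994% and 0.414% of 6039 peaks. All 3 were Sall1 peaks, +28.3 kb (-2.70 ± 0.35, adjusted p = 0.00083), +26 kb (-3.96 ± 0.68, adjusted p = 0.0029) and +6.1 kb (-1.01 ± 0.25, adjusted p = 0.016), and the first and second of these passed through the adult samples alone. The P0 sums of this cluster held 83 and 112 nuclei. Without either P0 sample no member peak was called, nor was any other peak of the genome, so these fits say nothing about the members in particular. The log2 fold change without the first or second P0 sample was -3.09 or -2.55 at Sall1 +28.3 kb and -1.18 or -1.09 at Sall1 +6.1 kb. Without the P21 sample 2 member peaks were more open at P0 and 5 in adults, and without the first P56 sample 3 and 3. Over all peaks these fits called 5220 and 6493 of 59303, and 3435 and 3652 of 36308.

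In the remaining clusters fewer member peaks could be tested. In stroma 2, 1 of the 2 stromal clusters, 14 of 27 were more open at P0 and 2 in adults, against 26.5% and 23.7% of 53951 peaks. The filter had passed 15 of the 27 through the P0 samples alone and 4 through the adult samples alone, and 1 of the 8 that passed in both stages was more open at P0. The 14 included 4 of 7 Meox1, 4 of 6 Uncx and 3 of 3 Eya1 peaks. Of these genes 2 Meox1, 3 Uncx and 0 Eya1 peaks passed the filter in both stages, and 1 Uncx peak among them was called. Sall1 +28.3 kb, passed through the adult samples alone, was 1 of the 2 in the other direction (-3.79 ± 0.74, adjusted p = 0.00018). The counts of 14 and 2 fell without either P0 sample, as did those over all peaks, with 1 P0 sample left in the fit. Without the first P56 sample they were 23 and 5, beside 25938 and 20619 of 105355 peaks. In the adult direction the count was 4 without the P21 or the second P56 sample, beside 19439 of 104923 and 17677 of 104933. The Sall1 call ended without either P0 sample (adjusted p = 0.071 and 0.083). In PC, 5 of 13 were more open at P0 and 1 in adults (of 2 that passed the filter in both stages, neither was called), against 16.8% and 12.7% of 40576 peaks, with the Cited1 start (2.35 ± 0.46, adjusted p = 0.00052) and the Eya1 start (2.23 ± 0.47, adjusted p = 0.00092) among the 5, both passed through the P0 samples alone. The count of 5 fell without either P0 sample, as did that over all peaks, with 1 P0 sample left in the fit. It was 2 without the second P56 sample, beside 4367 of 43833 peaks. The Eya1 call in PC ended without the first P0 sample (adjusted p = 0.14), and the 1 peak in the adult direction, Sall1 +30.8 kb, was called neither without either P0 sample nor without the P21 or second P56 sample. In podocytes edgeR called none of 3 tested peaks in either direction (1 at an unadjusted p under 0.05, and 0 with DESeq2), against 3.52% and 6.07% of 13523 peaks, and the Eya1 start had 0.38 ± 0.35 (adjusted p = 0.61). In stroma 1 none of 2 was called (1 at an unadjusted p under 0.05, and 0 with DESeq2), against 20.8% and 17% of 15376 peaks. Leaving out 1 adult sample gave 3 to 8 more open at P0. Over all peaks it gave 9585 of 47580 without the P21, 11538 of 48217 without the first and 7879 of 45172 without the second P56 sample.

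Over gene windows, the proximal tubule clusters had calls in both directions. In PCT all 7 members were tested and passed the filter in both stages, and 3 were more open at P0 and 1 in adults, against 15.8% and 12.9% of 26810 genes. The 3 were Meox1 (log2 fold change 1.55 ± 0.39, adjusted p = 0.014), Uncx (1.40 ± 0.42, adjusted p = 0.031) and Eya1 (1.14 ± 0.30, adjusted p = 0.016), and the other was Sall1 (-1.03 ± 0.16, adjusted p = 0.0014). Each of the 3 calls at P0 ended without either P0 sample (adjusted p from 0.061 to 0.25), that of Uncx also without the second P56 sample (0.060), and with DESeq2 Uncx and Meox1 were not called (0.10 and 0.051). After thinning the Sall1 window was called (adjusted p = 0.00082), Eya1 was not (0.24), and Uncx and Meox1 were too low to test. In PST 1 of 6 was called in each direction, against 7.76% and 5.65% of 21787 genes. Sall1 was less open at P0 (-0.67 ± 0.17, adjusted p = 0.024), and Meox1, which passed the filter through the P0 samples alone, was more open (2.35 ± 0.58, adjusted p = 0.020). Both PST calls ended without either P0 sample (adjusted p from 0.14 to 0.36), after thinning Sall1 was not called (0.71), and with DESeq2 Meox1 was not (0.058).

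In the other 4 clusters no member window was less open at P0 by edgeR or DESeq2 with all samples in the fit, and 1 to 3 were more open. In podocytes it was Uncx, 1 of 4 tested (2.09 ± 0.59, adjusted p = 0.018), against 5.53% and 6.23% of 16051 genes. It passed the filter through the P0 samples alone, and the call ended without the second P0 sample (adjusted p = 0.12), the P21 sample (0.058) or the first P56 sample (0.21). In PC they were 3 of 6, against 17.9% and 13.2% of 22277 genes, namely Cited1 (2.31 ± 0.46, adjusted p = 0.0011), Eya1 (1.81 ± 0.26, adjusted p = 6.0e-05) and Meox1 (1.21 ± 0.36, adjusted p = 0.017). Cited1 entered through the P0 samples alone and was not called without the first P0 sample (0.070), and Meox1 was called neither without either P0 sample nor without the second P56 sample (0.078 to 0.29). In stroma 1 they were 2 of 3, against 16.9% and 14.3% of 17652 genes. Eya1 (1.79 ± 0.32, adjusted p = 0.00012) entered through the P0 samples alone, and Meox1 (1.11 ± 0.27, adjusted p = 0.0024) was not called without the first P0 sample (0.054) or the second P56 sample (0.085). In stroma 2 they were 3 of 6, all passed in both stages, against 21.1% and 17.3% of 22924 genes. Meox1 had 1.30 ± 0.25 (adjusted p = 0.00095), Cited1 1.09 ± 0.37 (adjusted p = 0.028) and Eya1 0.76 ± 0.21 (adjusted p = 0.0093), and the last 2 were called neither without either P0 sample nor without the second P56 sample (0.052 to 0.33). With DESeq2 the calls of Uncx in podocytes (adjusted p = 0.26), Meox1 in PC (0.14), and Cited1 and Eya1 in stroma 2 (0.14 and 0.064) were lost. At an unadjusted p under 0.05 the Sall1 window was also less open at P0 in PC (-0.71 ± 0.31, adjusted p = 0.087). Without the first P56 sample edgeR called the Sall1 window less open at P0 in PC (adjusted p = 0.00065), stroma 1 (0.028) and stroma 2 (0.0083). After thinning edgeR called it more open at P0 in stroma 2 (adjusted p = 0.034).

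**Figure D4:**
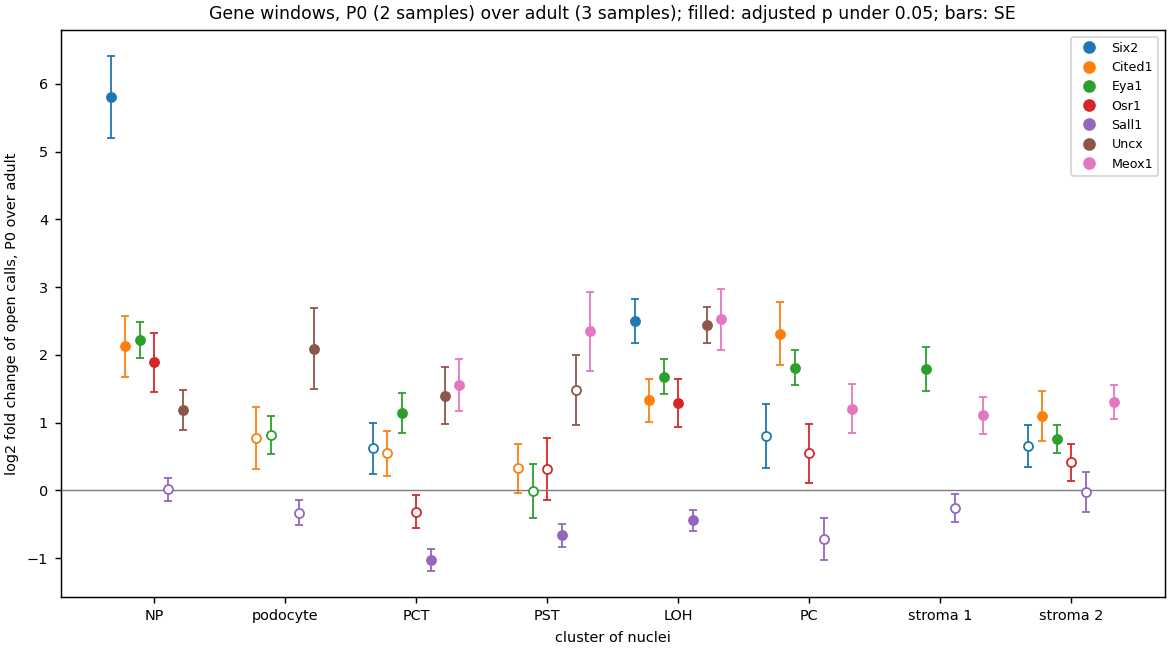
Log2 fold change (P0 over adult) of the summed open calls over each gene window in 8 clusters, with the SE as bars; filled points have an edgeR adjusted p under 0.05, and genes too low to test are left out. Six2 stood at 5.81 in NP and 2.50 in LOH, and Sall1 was called below 0 in PCT, PST and LOH, while its values in the other 5 clusters, from -0.71 in PC to 0.02 in NP, were not called.

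Other genes of the progenitor programme were tested in the same fit of NP. Of 18 listed genes 16 could be tested, and 11 were more open at P0, 2 were more open in adults and 3 were not called, against the 21.2% and 18.8% of all 15381 genes. Of these 16, 8 passed the filter through the P0 samples alone, and of the 8 that passed in both stages 3 were more open at P0 and 2 in adults. After thinning 2 were called at P0 and 0 in adults, against 438 and 338 of the 1966 genes tested in that fit. Of those 3, Dpf3, a subunit of a chromatin remodelling complex, had 1.72 ± 0.19 (adjusted p = 1.1e-14), Fgf20, a growth factor of the progenitors, 0.72 ± 0.23 (adjusted p = 0.0072), and Hoxc10 0.68 ± 0.26 (adjusted p = 0.028). Among the genes that passed through the P0 samples alone were Wt1, a zinc finger factor of progenitors and podocytes (3.95 ± 0.34, adjusted p = 6.5e-22), and Rspo1, a secreted enhancer of Wnt signalling (4.28 ± 0.38, adjusted p = 9.9e-21). The 2 in the other direction were Pax2 (-0.43 ± 0.15, adjusted p = 0.013), which is also used by tubule epithelium, and Hoxa10 (-0.44 ± 0.17, adjusted p = 0.033). Neither was called without the first P0, the second P0 or the P21 sample, and 1 was called without the second P56 sample. Of 8 genes of the early nephron epithelium 5 could be tested, 1 was more open at P0 (Ccnd1, a cell cycle regulator, 1.02 ± 0.22, adjusted p = 3.3e-05) and 1 in adults (Pax8, a tubule factor, -0.79 ± 0.15, adjusted p = 1.7e-06). Each of these counts of 1 in 5 is at the share over all genes, and after thinning none was called.

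The sequence beneath the peaks was compared by the 6 cores in the central 300 bases. The homeodomain core TAATTA occurred in 14 of the 182 member peaks (7.69%) and in 7 of the 49 NP-led ones (14.3%), against 8.88% of 300693 peaks on the assembled nuclear chromosomes. The HOX core occurred in 11 (6.04%) and 6 (12.2%), against 4.94% of all. The SIX-family core was in 9 member peaks (4.95%) and 4 NP-led ones, against 7.15% of all peaks. It was in the central 300 bases of none of the 16 peaks with a 2-fold lead. Six2 -60.4 kb, 1 of these 16, held 1 SIX-family core outside its central 300 bases. The TCF/LEF core was in 11 member peaks (6.04%) and 2 NP-led ones against 7.82%, the OSR core in 9 (4.95%) and 1 against 3.72%, and the TEAD core in 34 (18.7%) and 10 against 18.8%. Median GC content was 50% in member peaks, 53% in the NP-led ones and 46.7% in all. These matches are descriptions of short letter strings and were not tested.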

How the data were processed

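Single nuclei ATAC-seq was performed by the authors on kidneys of P0, P21 and P56 mice, 5 samples in all. Per the labels the submitters' processing notes name Cell Ranger ATAC 1.1.0 and MACS2, and per the methods peaks were called on mm10 for each cell type on pooled samples and merged, and nuclei were clustered with SnapATAC after Harmony correction. The deposited matrix holds whole-number count values, 1 for an open peak in a nucleus, with 89197 entries stored as 0 that were read as closed, and the deposited peak list holds start and end positions (of no count or score unit), used as coordinates. The deposited nuclei carry a stage and a batch number, and the batch number was read as the sample number of the labels for that stage. Per the methods each sample was a batch of its own, and P0 kidneys were lysed in a smaller volume than older ones. Stage cannot be told apart from batch or lysis volume here.

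Shares of open nuclei were computed per cluster and sample and given as mean ± SD. Open calls were summed per sample and cluster (at least 20 nuclei) over peaks and over GENCODE gene windows, and P0 was tested against adult in each cluster with edgeR 4.0.16 (R 4.3.3, filterByExpr with a count minimum of 10 and a total of 15, TMM, quasi-likelihood fit, Benjamini-Hochberg at 0.05), which was tested on simulated data. No test was made between clusters. Member genes, lists and tests were chosen with earlier results of these data known. The genes named are the 7 members, with for each the start peak, the most open other window and distal peaks, and the peak with the largest gap between NP and the next cluster at P0, plus peaks with a 2-fold NP lead, called peaks in NP, PC or PST and peaks led by NP in adults, which were added after their values were seen. No doublet caller was run. Bulk ATAC-seq and single-cell RNA samples were not analysed here. Intervals and floors cover counting error only. Alternatives were DESeq2 1.42.0, RLE size factors, no low-count filter, a replicate block, each sample left out, thinning to 1000 open peaks per nucleus, Fisher's exact test over nuclei, and other windows.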

Additional observations from a re-analysis of the deposited data

Results flagged for a closer look

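Sall1 -1.3 kb moved in opposite directions in 2 clusters. It was more open at P0 in LOH (log2 fold change 1.22 ± 0.43 SE, edgeR adjusted p = 0.019), with 8.02 and 5.95 CPM at P0 and 1.28, 1.41 and 3.88 in adults. In PCT it was less open at P0 (-1.23 ± 0.42, adjusted p = 0.035), with 2.72 and 1.49 at P0 and 4.71, 3.90 and 4.57 in adults. The peak was picked because its calls were opposite and the samples of the stages did not overlap in either cluster, so neither trait is support. In LOH it passed the low-count filter through the P0 samples alone. The difference between the clusters was not tested. The LOH call ended without the first P0 sample (adjusted p = 0.15), the P21 sample (0.058) or the first P56 sample (0.090), and was 2.18 without the second P56 sample. The PCT call ended without the first P0 (0.093), the second P0 (0.27), the P21 (0.061) or the second P56 sample (0.091).

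A further cluster of 217 adult nuclei, deposited with a name joining NP and LOH, entered no comparison. A count of 0 in them allows a share of up to 1.38%, and 6 named peaks were above this with open nuclei in each adult sample. Their pooled shares were 31.3% at Sall1 +0.7 kb, 10.6% at Uncx +56 kb, 5.53% at Uncx +0.3 kb, 3.69% at Uncx -7.4 kb, 2.30% at Sall1 -1.3 kb and 1.84% at Osr1 +4.4 kb. The Six2 start was open in 5 of the 217 nuclei (2.30%), from 2 adult samples, and Six2 -60.4 kb in 0. The count of 6 named peaks was not made over all peaks.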

How the results depend on the processing

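Over 116 named fold changes and 1169 values under alternatives, 1000 kept their side of the threshold and 122 kept the direction but were no longer called. A further 43 became called, and 4 changed sign with a call in either fit. The 1000 include values that changed sign without a call in either fit. The Sall1 window in NP, for example, ran from -0.13 to 0.10 when single samples were left out. The 4 were, with Fisher's exact test over nuclei, Meox1 +51.8 kb in LOH (1.05), Sall1 +0.7 kb in LOH (0.37) and Sall1 +0.7 kb in stroma 2 (0.886), and, after thinning, the Sall1 window in stroma 2 (1.46). The cause was not tested, but Fisher's exact test here scales for neither depth nor sample. With all samples in the fit, 7 of the 182 member peaks passed the low-count filter in NP, whose cutoff follows the median library.

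Counts of member peaks more open at P0 moved as follows. Without the low-count filter they were 70 in NP, 7 in podocytes, 2 in PST, 0 in PC, 17 in stroma 1 and 32 in stroma 2. Over all peaks that setting called 53404 of 293309 in NP, 5269 of 242727 in podocytes and 2543 of 280452 in PST. In PC it called 0 of 278469, in stroma 1 28807 of 285709 and in stroma 2 40232 of 297658. With Fisher's exact test the member counts were 50 in NP, 5 in podocytes, 52 in PCT, 22 in PST, 122 in LOH, 18 in PC, 17 in stroma 1 and 58 in stroma 2. Over all peaks that test called 21703 of 293309 in NP, 2638 of 242727 in podocytes, 62273 of 297118 in PCT and 17254 of 280452 in PST. It called 120040 of 295842 in LOH, 32625 of 278469 in PC, 24694 of 285709 in stroma 1 and 90959 of 297658 in stroma 2. With DESeq2 the member counts were 5 in PCT (12369 of 115761 over all peaks) and 2 in PC (3631 of 40576). With RLE size factors the count was 1 in stroma 1 (3421 of 15376). After thinning they were 0 in PCT and 5 in LOH, and no member peak could be tested in NP, podocytes, PC or the stromal clusters. With every peak within 100 kb they were 25 in PCT, 2 in PST and 1 in stroma 1.

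Counts more open in adults without the filter were 2 in NP, 22 in PCT, 11 in PST, 0 in PC and 1 in stroma 1. Over all peaks that setting called 6654 of 293309 in NP, 33374 of 297118 in PCT and 16641 of 280452 in PST. In PC it called 0 of 278469 and in stroma 1 5755 of 285709. With Fisher's exact test the member counts were 4 in NP, 8 in PST, 3 in LOH, 2 in PC and 2 in stroma 1. Over all peaks that test called 11260 of 293309 in NP, 8223 of 280452 in PST and 7342 of 295842 in LOH. It called 3852 of 278469 in PC and 7270 of 285709 in stroma 1. After thinning the member counts were 2 in PCT, 0 in PST and 0 in LOH, beside 2797 of 42358, 25 of 6039 and 2402 of 19077 peaks. DESeq2 gave 1 in stroma 2 (8296 of 53951 over all peaks), and a 50 kb window gave 1 in LOH. Every peak within 100 kb gave 2 in NP, 5 in PC, 2 in stroma 1 and 5 in stroma 2. The windows use the main fit, whose shares over all peaks are given above. Extending the window to 5 kb upstream left the same 182 peaks.

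Progenitor genes more open at P0 were 2 after thinning, and those more open in adults were 0 after thinning, 0 with DESeq2 and 1 with 5 kb upstream. Over all genes in NP, thinning gave 438 at P0 and 338 in adults of 1966. In adults DESeq2 gave 2334 of 15381 and 5 kb upstream 3141 of 16198. Early epithelial genes were 0 in both directions after thinning. After thinning, NP led 23 peaks at P0 and 1 in adults, with 0 at 2-fold in adults, and within 50 kb it led 3 in adults, with 0 at 2-fold. Shares of NP nuclei open at the start after thinning were at P0 5.11% for Six2, 3.16% for Cited1, 2.01% for Eya1, 1.75% for Osr1, 7.36% for Sall1, 1.80% for Uncx and 0.602% for Meox1, and in adults 0.794% for Cited1, 0.794% for Eya1, 8.74% for Sall1 and 1.44% for Uncx.

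Leaving out 1 sample gave, for P0 and adult calls in turn, 6 to 51 and 0 to 4 in NP, 0 to 1 and 0 to 1 in podocytes, 1 to 11 and 5 to 14 in PCT, 0 to 3 and 0 to 5 in PST, 34 to 46 and 2 to 7 in LOH, 1 to 6 and 0 to 2 in PC, 0 to 8 and 0 to 3 in stroma 1, and 6 to 23 and 0 to 5 in stroma 2. It gave 4 to 6 member genes at P0, 8 to 11 and 0 to 2 progenitor genes, 56 to 59 NP-led peaks at P0 and 20 to 28 at 2-fold, and 7 to 14 and 2 to 7 in adults. With 1 P0 sample left, that sample is assumed to vary like the adult ones. The numbers of peaks tested and called over the genome changed in these fits too, as given above for NP and for some fits of other clusters.

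The replicate numbers of the labels do not mark shared animals, and the deviations of same-numbered P0 and P56 samples correlated at 0.031 to 0.135 over the 8 clusters. With the replicate block, P0 calls were 2 in PST and 3 in PC, and of the 116 named values 1 became called and 5 were lost.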

Other observations

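For each gene window the most similar profiles were sought over the 26 sums of 13 clusters in the 2 P0 samples, by Pearson's r of log2 CPM. The candidates were protein-coding genes with a mean of at least 20 CPM over these sums, a level that Six2, Cited1, Osr1 and Uncx themselves did not reach. Six2 was nearest to Hey1 (r = 0.86), Kif14 (0.80) and Eri3 (0.80), and Cited1 to Pkdcc (0.76), Il17rd (0.74) and Zfp219 (0.72). Eya1 was nearest to Stau2 (0.92), Kcnj6 (0.91) and Ntrk3 (0.90), Osr1 to Cpe (0.86), Cnr1 (0.85) and Asxl3 (0.85), and Sall1 to Pclo (0.93), Iqsec3 (0.89) and Frem2 (0.88). Uncx was led by Slc6a5 (0.84) and Meox1 by Exoc6b (0.86). Between members, the highest were Uncx with Cited1 (0.68), Uncx with Eya1 (0.68) and Six2 with Eya1 (0.66). The sums share libraries and depth, so these values are descriptions across clusters of 2 samples.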
